A study of Mus musculus with 24 samples.

Results

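The genes described here are 9 alcohol and aldehyde dehydrogenases of the mouse liver: Adh1, Adh4, Adh5 and Adh7, and Aldh1a1, Aldh1a7, Aldh1b1, Aldh2 and Aldh3a2. They were taken by gene name from the 54532 genes of a count table made by RNA-seq of whole liver, and all 9 passed the filter on low counts in every comparison. The table held 24 libraries, 4 from each of 6 genotypes, all from mice fasted for 24 h; the methods of the study give males 8 to 10 weeks old. Rab30KO mice carried a whole-body deletion of Rab30 (its exon 4 removed), and Rab30 Ctrl mice were their wild-type littermates. The ff;ff mice carried floxed alleles of both Rab30 and Cpt2 without Cre and were littermates of the double knockouts. In Rab30 L-/- mice Rab30, in Cpt2 L-/- mice Cpt2, and in DKO mice both genes were deleted by Cre under the albumin promoter, which is active in hepatocytes, so that other liver cells kept the genes. Rab30 is a small GTPase of the Golgi, and Cpt2 is the inner-membrane enzyme that mitochondria need to burn long-chain fatty acids. The comparisons ask what a fasted liver without hepatocyte fat oxidation, without Rab30, or without both does to these genes. Cpt2 L-/-, DKO and Rab30 L-/- livers are set against the same 4 ff;ff livers, so these 3 comparisons share their controls. The labels name the ff;ff mice as littermates of DKO mice only. Where Cpt2 L-/- or Rab30 L-/- livers enter a comparison or the interaction, genotype and cross or collection therefore cannot be told apart.

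Alcohol dehydrogenases oxidize alcohols such as ethanol and retinol to aldehydes and pass the electrons to NAD+, and aldehyde dehydrogenases oxidize the aldehydes further to acids. In the liver this pair of steps clears ethanol and acetaldehyde, makes retinoic acid from retinol, removes formaldehyde bound to glutathione, and turns the fatty alcohols and fatty aldehydes that arise from lipid breakdown and omega-oxidation into fatty acids. The 4 Adh genes lie on the same strand of 1 cluster on chromosome 3 of GRCm38, from the start of Adh7 at 138217760 to the end of Adh5 at 138455499, whereas the Aldh genes are spread over chromosomes 4 (Aldh1b1), 5 (Aldh2), 11 (Aldh3a2) and 19 (Aldh1a1 and Aldh1a7).

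The libraries held 11801027 to 24497738 counts, and each of the 36 pairs of libraries within a genotype differed beyond sampling noise. The targeted genes did not mark each genotype in these gene-level counts, which do not separate the deleted exon from the rest of the gene. Rab30 stood at 36.6 ± 9.55 CPM (counts scaled to library size, with TMM, as for all CPM values here) in ff;ff, 17.1 ± 7.36 in Rab30 L-/-, 147 ± 30 in Cpt2 L-/- and 161 ± 57.9 in DKO livers (SD, n = 4), and at 14.1 ± 10.8 in Rab30 Ctrl and 11.2 ± 5.04 in Rab30KO livers. Cpt2 stood at 132 ± 5.16 CPM in ff;ff, 220 ± 40.3 in Rab30 L-/-, 127 ± 30.2 in Cpt2 L-/- and 105 ± 10.9 in DKO livers, and at 186 ± 20.2 in Rab30 Ctrl and 149 ± 41.2 in Rab30KO livers. By the tests below Rab30 was called higher in Cpt2 L-/- and DKO than in ff;ff livers (3.97-fold and 4.38-fold, adjusted p = 2.7e-05 and 5.5e-04), and it did not pass in Rab30 L-/- against ff;ff (-1.10, adjusted p = 0.174) or Rab30KO against Rab30 Ctrl livers (-0.34, adjusted p = 1). Cpt2 did not pass in Cpt2 L-/- or DKO against ff;ff livers (adjusted p = 0.788 and 0.0911), and its interaction was called (-0.99, adjusted p = 0.0191). The genotypes are therefore named as labelled throughout, and a direction given for a knockout is that of the libraries with its label. Of 8 hepatocyte markers none was at 0 in any genotype, and their summed level was 43000 to 57700 FPKM (the deposited level per gene length) in ff;ff, 21200 to 25900 in Cpt2 L-/- and 27200 to 32100 in DKO livers. This sum mainly follows Alb, which stood at 83070 ± 10090 CPM in ff;ff, 31610 ± 4543 in Cpt2 L-/- and 45800 ± 5999 in DKO livers. The next highest marker in ff;ff livers, Cps1, stood at 10580, 6745 and 8233 CPM on average. By the test below 4 of the 8 hepatocyte markers were lower and 0 higher in Cpt2 L-/- livers, and 3 lower and 0 higher in DKO livers. Among all genes tested 11.9% were lower in Cpt2 L-/- livers and 8.24% in DKO livers. Of 10 Kupffer cell markers, summed at 115 to 211 FPKM in ff;ff, 90.7 to 144 in Cpt2 L-/- and 85.7 to 107 in DKO livers, 3 and 6 were lower. These sums move together with the results below, and their part in them was not tested. In whole liver, fewer cells of a type and less RNA per cell cannot be told apart.

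Per length, Adh1, Aldh2 and Aldh1a1 were the most abundant of the 9 genes in ff;ff livers, at 299 ± 80.3, 287 ± 93.8 and 207 ± 80.2 FPKM (SD, n = 4), and the ranges of the 3 genes overlapped. Aldh3a2 followed at 73.6 ± 24.7 FPKM and Adh5 at 61.6 ± 7.08, again with overlapping ranges. Aldh1a7 at 33.7 ± 3.58, Adh4 at 30.1 ± 9.76 and Aldh1b1 at 23 ± 7.9 FPKM overlapped each other, and Adh7, whose enzyme is best known from the stomach, was lowest at 5.71 ± 1.18 FPKM. In a single test across the 6 genotypes, 9 of the 9 genes differed somewhere at an adjusted p under 0.05 (edgeR's quasi-likelihood F-test with Benjamini-Hochberg adjustment over 14584 genes), where 44.5% of all genes did. The adjusted p ran from 4.9e-08 for Aldh3a2 to 0.0411 for Adh7. The Adh7 call was lost without a filter on low counts (adjusted p = 0.128), with DESeq2 size factors (0.0503) and with limma-voom (0.0563). Left out singly, replicates 1, 2 or 4 of DKO, 1, 2 or 4 of ff;ff, 1, 2 or 3 of Cpt2 L-/-, 2 of Rab30KO and 1, 2 or 3 of Rab30 Ctrl also ended it (adjusted p up to 0.0978). The Aldh2 call was lost without DKO replicate 3 (0.0641) or 4 (0.0516), and the count was 7 without DKO replicate 4.

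**Figure D1:**
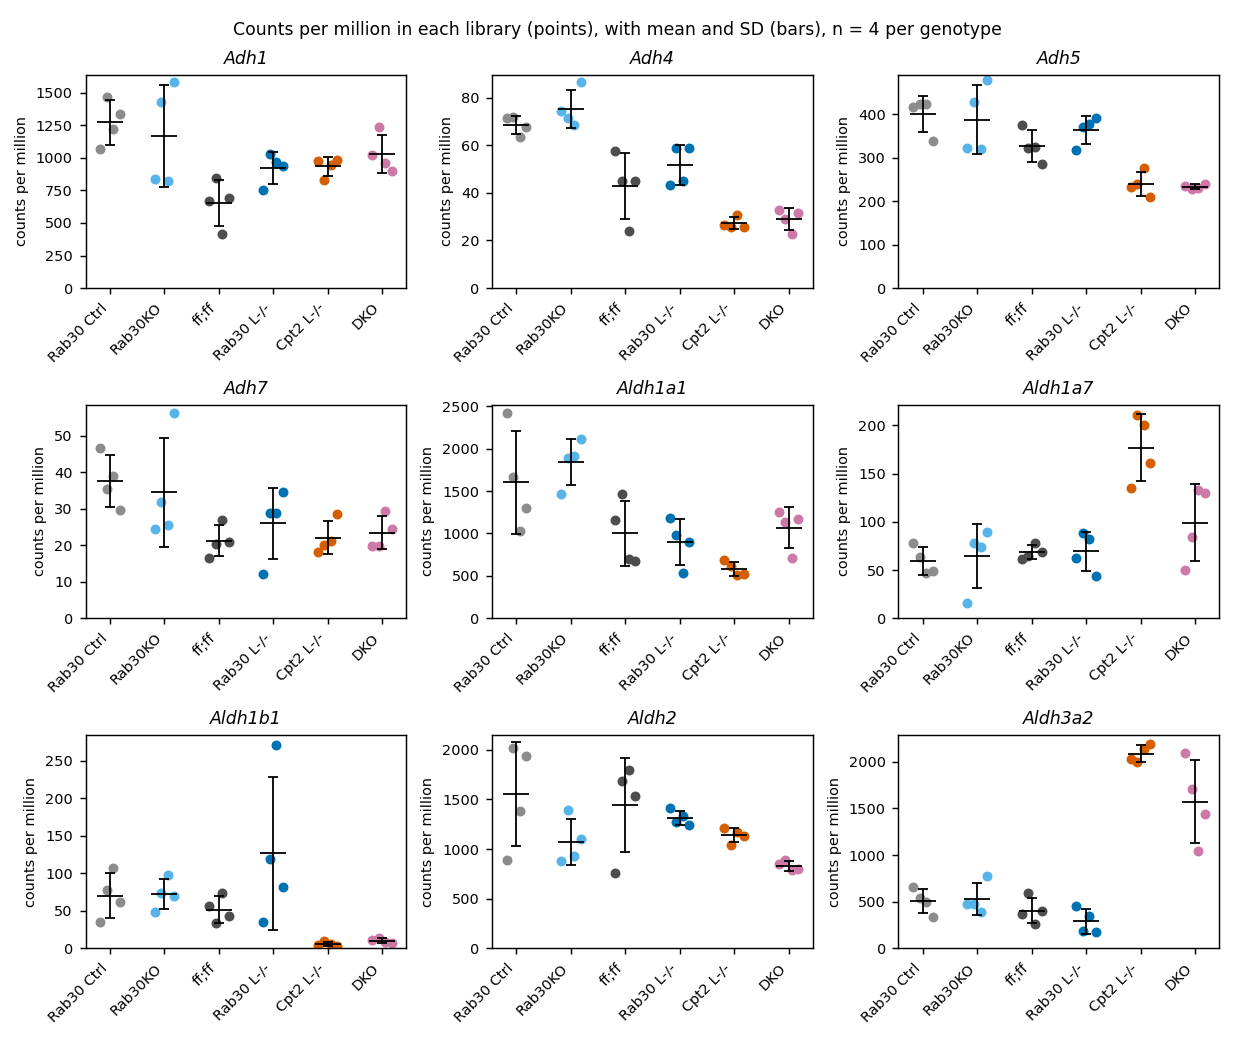
Level of each of the 9 genes in CPM (y axis, from 0) in every library (points), by genotype (x axis), with the mean and SD of 4 libraries. The Cpt2 L-/- and DKO points lie above all others for Aldh3a2, at 1043 CPM or more, and below all others for Aldh1b1, at 14.5 CPM or less.

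Loss of Cpt2 in hepatocytes went with opposite changes within the group. In Cpt2 L-/- against ff;ff livers 6 of the 9 genes passed the thresholds used throughout (adjusted p under 0.05 over all genes tested, and at least a 1.2-fold difference), where 23.8% of all 13270 genes tested did. Aldh3a2 and Aldh1a7 were higher, a direction that 11.9% of all genes took, and Aldh1b1, Aldh1a1, Adh4 and Adh5 were lower, which 11.9% of all genes also were. The median log2 difference of the 9 genes was -0.35, beside 0 over all genes. The count of 6 fell to 3 without Cpt2 L-/- replicate 2 or 4. In DKO against ff;ff livers 4 of the 9 passed, where 16.1% of all 13389 genes tested did. Aldh3a2 was higher, as 7.87% of all genes were, and Aldh1b1, Aldh2 and Adh5 were lower, as 8.24% of all genes were. The median log2 difference of the 9 was 0.08, beside -0.02 over all genes. The count of 4 fell to 2 without DKO replicate 2, 3 or 4.

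Aldh3a2, the fatty aldehyde dehydrogenase of the endoplasmic reticulum and peroxisome membranes, which oxidizes long-chain aldehydes to fatty acids and is a known target of Pparα, showed the strongest rise. Its 4 Cpt2 L-/- livers held 2032, 1994, 2132 and 2186 CPM and its DKO livers 2095, 1713, 1043 and 1436 CPM, against 368, 591, 267 and 400 CPM in ff;ff livers. Neither set overlapped ff;ff, and the Cpt2 L-/- livers were far closer to each other (SD 3.62% of the mean per length) than the DKO livers (28.5%). The log2 fold change was 2.35 (SE 0.22), or 5.09-fold, in Cpt2 L-/- livers (adjusted p = 1.4e-05) and 1.94 (SE 0.27), or 3.85-fold, in DKO livers (adjusted p = 6.5e-04). These calls held in every alternative fit, with log2 values of 2.19 to 2.59 and 1.77 to 2.19 when any 1 library was left out. Among the genes called higher Aldh3a2 ranked 160 of 1576 by fold in Cpt2 L-/- livers and 151 of 1054 in DKO livers, so other genes rose more. The gene lies on the minus strand of chromosome 11 (61223417 to 61267464). Its RefSeq start lies inside this span, and the window before that start also falls within it. The 250 bases before the RefSeq start are shown because Aldh3a2 is the member with the clearest rise. They read as follows, with capitals for the motifs found.

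Aldh3a2 (GRCm38.p6, chr11:61267187-61267436, minus strand): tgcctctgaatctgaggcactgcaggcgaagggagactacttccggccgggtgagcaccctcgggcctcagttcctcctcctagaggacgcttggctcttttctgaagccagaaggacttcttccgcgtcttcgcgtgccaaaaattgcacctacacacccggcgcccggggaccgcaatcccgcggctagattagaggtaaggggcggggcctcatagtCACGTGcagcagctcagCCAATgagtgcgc

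This window is 61.2% G or C, with 18 CG pairs. It was searched on both strands for 5 motifs. The nuclear receptor half-site is AGGTCA and the antioxidant response element is TGACNNNGC. The CCAAT box was searched by its own letters, the TATA box as TATAAA, and the E-box as CACGTG. The window held 1 E-box and, apart from it, 1 CCAAT box, and none of the other 3 motifs. Of 32841 RefSeq promoter windows of this length, 6.02% held CACGTG, 33.9% CCAAT, 14% AGGTCA, 12.4% TATAAA and 10.2% TGACNNNGC. Among the 8 members with an entry, CACGTG was found in 1, CCAAT in 5, AGGTCA in 1 (Adh4), TATAAA in 3 and TGACNNNGC in 0. A letter match describes these bases and is not evidence of binding.

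Aldh1b1, a mitochondrial enzyme that oxidizes acetaldehyde and other short aldehydes, fell the most of the 9 genes. The Cpt2 L-/- livers held 4.93, 9.88, 5.89 and 3.56 CPM and the DKO livers 11.1, 14.5, 8.2 and 7.32 CPM, against 56.1, 33.7, 74.3 and 43.2 CPM in ff;ff livers. Every Cpt2 L-/- and DKO liver lay below every liver of the other 4 genotypes. The log2 fold change was -3.10 (SE 0.33), 8.6-fold lower, in Cpt2 L-/- livers (adjusted p = 6.2e-05) and -2.34 (SE 0.28), 5.07-fold lower, in DKO livers (adjusted p = 3.5e-04). Both calls held in every alternative fit, between -3.45 and -2.87 and between -2.55 and -2.11 with 1 library left out. It ranked 79 of 1579 genes called lower in Cpt2 L-/- livers and 61 of 1103 in DKO livers. The gene is on the plus strand of chromosome 4 (45799022 to 45804604), and its upstream window, shown for comparison with that of Aldh3a2, held none of the 5 motifs and 4 CG pairs.

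Aldh1b1 (GRCm38.p6, chr4:45798772-45799021, plus strand): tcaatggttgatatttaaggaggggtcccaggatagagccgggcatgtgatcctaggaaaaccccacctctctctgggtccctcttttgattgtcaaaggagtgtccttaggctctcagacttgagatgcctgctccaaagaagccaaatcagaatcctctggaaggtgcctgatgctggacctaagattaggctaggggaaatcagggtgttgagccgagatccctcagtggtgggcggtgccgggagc

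Aldh1a1 and Aldh1a7 are close relatives that lie next to each other on chromosome 19 and are read in opposite directions (20492715 to 20643462 on the plus strand, 20692953 to 20727562 on the minus strand). Aldh1a1 is the cytosolic enzyme that makes retinoic acid from retinaldehyde. Their coding sequences are 1503 bases each and 91.6% identical, whereas no other pair within the Adh or the Aldh members passed 69.8%. Their promoter windows, taken at the downstream of the 2 RefSeq starts of Aldh1a1, are shown because the pair moved in opposite directions in Cpt2 L-/- livers. Of the 2 Aldh1a1 windows, the one that shared more short runs of bases with the Aldh1a7 window was taken. Their likeness is thus partly set by this choice, and no identity was computed for the other window. The window taken lies within the Aldh1a1 span given above. The 100 bases before the start were 94% identical, and the whole windows of 250 bases 73.6% (173 of 235 aligned bases). Capitals mark the longest run that the windows share, 65 bases that end 30 bases before either start and hold a CCAAT.

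Aldh1a1 (GRCm38.p6, chr19:20601718-20601967, plus strand): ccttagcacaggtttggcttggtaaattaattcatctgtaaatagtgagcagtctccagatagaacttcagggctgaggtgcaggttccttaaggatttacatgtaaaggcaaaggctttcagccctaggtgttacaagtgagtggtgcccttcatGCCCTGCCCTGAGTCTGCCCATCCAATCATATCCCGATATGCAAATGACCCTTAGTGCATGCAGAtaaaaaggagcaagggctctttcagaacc

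Aldh1a7 (GRCm38.p6, chr19:20727557-20727806, minus strand): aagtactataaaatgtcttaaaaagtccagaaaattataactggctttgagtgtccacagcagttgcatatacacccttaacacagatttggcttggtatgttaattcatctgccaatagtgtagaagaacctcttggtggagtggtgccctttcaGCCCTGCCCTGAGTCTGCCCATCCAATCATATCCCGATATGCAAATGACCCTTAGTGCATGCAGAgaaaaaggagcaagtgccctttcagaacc

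Aldh1a7 rose in Cpt2 L-/- livers, which held 135, 210, 200 and 161 CPM against 61.5, 65, 77.9 and 69.2 CPM in ff;ff livers. The groups did not overlap, and the log2 fold change was 1.36 (SE 0.16), or 2.56-fold (adjusted p = 7.2e-05), a call kept in every alternative fit. The DKO livers spread more widely, at 50.1, 83.9, 133 and 130 CPM, with 1 liver below all ff;ff livers. Their log2 difference from ff;ff was 0.53 (SE 0.26, adjusted p = 0.202), and it passed only without DKO replicate 1, the lowest liver (log2 0.75, adjusted p = 0.0262, highest adjusted p over the other fits 0.427).

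Aldh1a1 was lower in Cpt2 L-/- livers, at 685, 621, 505 and 517 CPM, than in ff;ff livers, at 1164, 1469, 701 and 672 CPM. The groups overlapped slightly, since 1 Cpt2 L-/- liver was above the lowest ff;ff liver. The log2 fold change was -0.80 (SE 0.25), 1.74-fold lower (adjusted p = 0.0331). That call was lost without ff;ff replicate 1 (-0.72) or 2 (-0.55), or without Cpt2 L-/- replicate 2 (-0.84), 3 (-0.73) or 4 (-0.74), at an adjusted p of up to 0.11. The DKO livers, at 1252, 1135, 713 and 1169 CPM, lay within the range of ff;ff livers (log2 0.08, SE 0.27, adjusted p = 0.876). Reads that Aldh1a1 and Aldh1a7 share could be split between them by the counting, which the sources used here do not describe. Of all 50-base windows of their GENCODE M21 transcripts, 3.06% of those of Aldh1a1 and 7.49% of those of Aldh1a7 occurred in the other gene, and 1 window of each did at 100 bases.

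The 4 Adh genes did not move as a block. Adh5, the formaldehyde dehydrogenase that works on the glutathione adduct, fell modestly in both knockouts of Cpt2. It stood at 234, 241, 276 and 211 CPM in Cpt2 L-/- and at 235, 229, 230 and 240 CPM in DKO livers, against 375, 323, 325 and 286 CPM in ff;ff livers. All 8 livers without Cpt2 lay below all 4 ff;ff livers. The log2 fold change was -0.46 (SE 0.14, adjusted p = 0.0342) in Cpt2 L-/- and -0.49 (SE 0.13, adjusted p = 0.0263) in DKO livers, 1.37-fold and 1.41-fold lower. Leaving out 1 library moved these values little (-0.53 to -0.39 and -0.56 to -0.42), yet the first call was lost without ff;ff replicate 1 or 2 or Cpt2 L-/- replicate 1, 2 or 4 (adjusted p up to 0.125), and the DKO call without ff;ff replicate 2 or any DKO replicate (adjusted p up to 0.0744). Both calls were also lost without the filter on low counts, at adjusted p = 0.0724 and 0.063.

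Adh4, whose enzyme oxidizes retinol and longer alcohols, stood at 26.7, 25.6, 30.9 and 25.6 CPM in Cpt2 L-/- livers against 57.7, 45, 23.9 and 45.1 CPM in ff;ff livers. A lone ff;ff liver, replicate 3, was below all Cpt2 L-/- livers and the other ff;ff livers were above them all. The log2 fold change was -0.67 (SE 0.22, adjusted p = 0.0396), or 1.59-fold lower. Without ff;ff replicate 3 it was -0.87 (adjusted p = 8.93e-04), whereas leaving out any 1 of the other 7 libraries lost the call (-0.73 to -0.50, adjusted p up to 0.102), as did limma-voom (-0.60, adjusted p = 0.077). In DKO livers (32.7, 29.1, 22.6 and 31.5 CPM) the log2 difference was -0.57 (SE 0.23, adjusted p = 0.116), and -0.77 (adjusted p = 0.00826) without ff;ff replicate 3. It also passed in the fit over all 24 libraries (-0.57, adjusted p = 0.0314).

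Adh1, the main ethanol dehydrogenase of the liver, ran the other way, without passing the test. Its Cpt2 L-/- livers held 980, 832, 943 and 987 CPM and its DKO livers 1022, 1234, 959 and 896 CPM, against 668, 843, 418 and 693 CPM in ff;ff livers. All DKO livers were above all ff;ff livers, and 3 of 4 Cpt2 L-/- livers were. The log2 difference was 0.50 (SE 0.20, adjusted p = 0.0848) and 0.64 (SE 0.21, adjusted p = 0.0568). It passed in both comparisons without ff;ff replicate 2 (0.65 and 0.79, adjusted p = 0.0401 and 0.0376), in Cpt2 L-/- livers without the filter (0.52, adjusted p = 0.0319) and, in DKO livers, by DESeq2's Wald test (adjusted p = 0.0187), limma-voom (0.0484), a fit over all 24 libraries (0.0313) and without the filter (0.0101). Adh7 lay at 18.3 to 28.5 CPM in Cpt2 L-/-, 19.7 to 29.3 in DKO and 16.6 to 27 in ff;ff livers, with log2 differences of 0.04 (SE 0.19) and 0.13 (SE 0.19) that did not pass (adjusted p = 0.903 and 0.689). An antisense gene, 0610031O16Rik, covers 2.85% of the exon bases of Adh7, and another, Gm16559, 6.09% of those of Adh1. The sources used here do not say whether reads were counted by strand, so reads from these stretches cannot be told apart.

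Aldh2, the mitochondrial enzyme that removes acetaldehyde after ethanol, stood at 851, 888, 785 and 798 CPM in DKO livers and at 760, 1680, 1797 and 1537 CPM in ff;ff livers. The DKO livers were below 3 of the ff;ff livers and above replicate 1. The log2 fold change was -0.81 (SE 0.24), 1.75-fold lower (adjusted p = 0.0374). Without ff;ff replicate 1 it was -1.02 (adjusted p = 0.00164), and the call was lost without any 1 of the other 7 libraries (-0.84 to -0.69, adjusted p up to 0.0995) and by limma-voom (-0.72, adjusted p = 0.0677). In Cpt2 L-/- livers, at 1209, 1046, 1176 and 1134 CPM, the log2 difference was -0.35 (SE 0.23, adjusted p = 0.304). It passed without ff;ff replicate 1 (-0.56, adjusted p = 0.0145). Gm42879, annotated on the opposite strand, covers 2.54% of the exon bases of Aldh2, and the limit on strand given for Adh1 and Adh7 applies there too. Aldh2 has no promoter entry in the RefSeq table used.

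**Figure D2:**
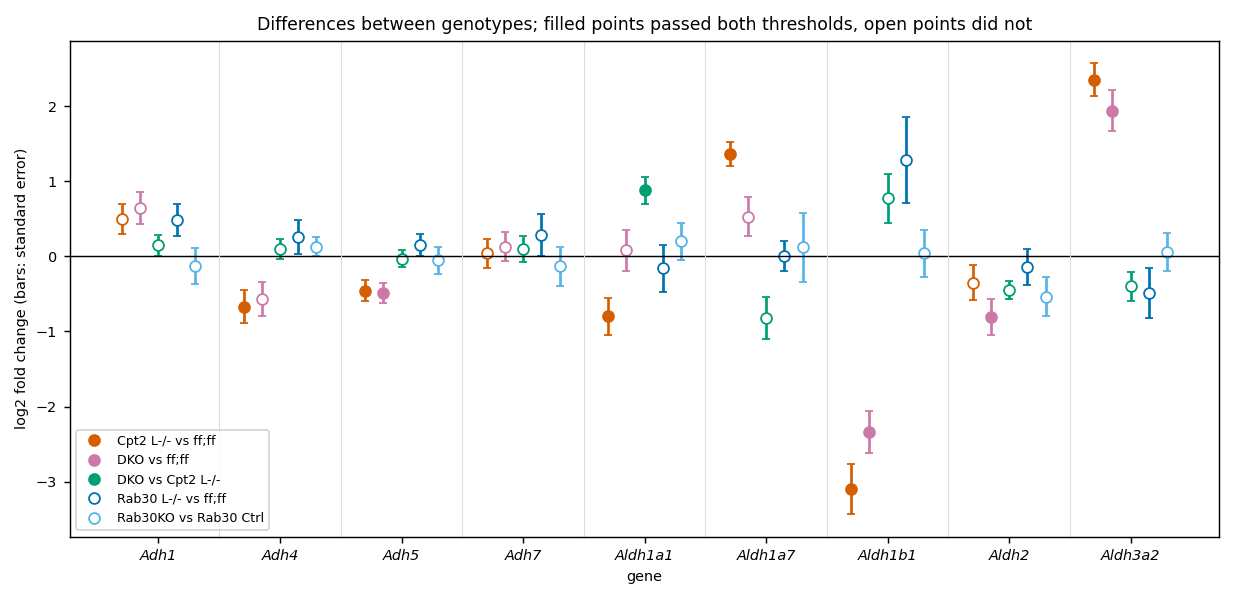
Log2 fold change with its standard error (y axis) of each of the 9 genes (x axis) in the 5 comparisons of genotypes, from edgeR's quasi-likelihood test; filled points passed both thresholds. Aldh3a2 and Aldh1b1 stand out in both comparisons of Cpt2-deficient with ff;ff livers, and no gene passed in the Rab30 L-/- or Rab30KO comparison.

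Whether loss of Rab30 changed these genes in livers without Cpt2 was read from DKO against Cpt2 L-/- livers, where 1 of the 9 genes passed and 2.71% of all 13306 genes tested did. Aldh1a1 was higher in DKO livers, with no overlap between the groups given above (713 CPM at the lowest against 685 CPM at the highest). Its log2 fold change was 0.88 (SE 0.18), or 1.84-fold (adjusted p = 0.0325). The call was lost without DKO replicate 1 (0.79) or 2 (0.85) or Cpt2 L-/- replicate 2 (0.92), 3 (0.81) or 4 (0.83), at an adjusted p of up to 0.122, and in the fit over all 24 libraries (0.87, adjusted p = 0.137). The other 8 genes did not pass, and 4 of the 9 had an unadjusted p under 0.05. Aldh2 differed by -0.45 (SE 0.12, adjusted p = 0.0623), with every DKO liver below every Cpt2 L-/- liver. Aldh1a7 differed by -0.82 (SE 0.28, adjusted p = 0.138) and Aldh1b1 by 0.77 (SE 0.32, adjusted p = 0.194). Aldh3a2 differed by -0.40 (SE 0.19, adjusted p = 0.241). DESeq2's Wald test, which called 1032 genes in all here against 360, passed 3 of the 9, adding Aldh1a7 and Aldh2. The log2 differences of Adh1, Adh4, Adh5 and Adh7 were 0.15, 0.10, -0.03 and 0.10, with standard errors of 0.11 to 0.17.

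Deleted alone, Rab30 went with no called difference in these genes. In Rab30 L-/- against ff;ff livers 0 of the 9 passed by edgeR's quasi-likelihood test, DESeq2 or limma-voom, 1 (Adh1) had an unadjusted p under 0.05, and 0.479% of all 13367 genes passed. The Adh1 livers held 750, 1026, 970 and 941 CPM, with a log2 difference of 0.48 (SE 0.21, adjusted p = 0.427). Aldh1b1 had the largest difference, 1.28 (SE 0.57, adjusted p = 0.465), from livers at 35.6, 120, 271 and 81.8 CPM. Replicate 3 alone lay far above the others, and without it the difference was 0.62. Aldh3a2 stood at 452, 186, 349 and 178 CPM, a log2 difference of -0.49 (SE 0.33, adjusted p = 0.615), within or below the ff;ff range and far from the Cpt2 L-/- and DKO livers.

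In Rab30KO against Rab30 Ctrl livers 0 of the 9 passed by any of the 3 tests, 0 had an unadjusted p under 0.05, and 0.022% of all 13656 genes passed. The log2 differences ran from -0.54 for Aldh2 (SE 0.26, unadjusted p = 0.0617 by the same quasi-likelihood test, adjusted p = 1) to 0.20 for Aldh1a1 (SE 0.25). Aldh1a7 was uneven in the Rab30KO livers, at 15.7, 78.3, 74 and 89.6 CPM. The standard errors of 0.13 to 0.46 leave room for differences of well over 1.2-fold in several of the genes. A test of whether loss of Rab30 acts differently with and without Cpt2 (the interaction, fitted on the 16 livers of the floxed crosses) passed 0 of the 9 by the same 3 tests, where 4.06% of 14063 genes passed. Unadjusted, 2 had a p under 0.05: Aldh1a1 with a log2 interaction of 1.04 (SE 0.38, adjusted p = 0.125) and Aldh1a7 with -0.83 (SE 0.36, adjusted p = 0.193).

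The order of the genotypes differed between members. Aldh3a2 was highest in Cpt2 L-/- and DKO livers and Aldh1b1 lowest there, each with no overlap with the other 4 genotypes, and the highest mean was 7.17 and 20.9 times the lowest. Adh4 was highest in Rab30KO and Rab30 Ctrl livers (75.3 ± 7.86 and 68.6 ± 3.94 CPM, SD, n = 4), which overlapped each other but not Rab30 L-/- livers (51.6 CPM). Aldh1a1 was likewise highest in Rab30KO and Rab30 Ctrl livers, at 1845 and 1602 CPM on average. Rab30 Ctrl and ff;ff livers are both without a deletion but come from separate crosses, and differences between them cannot be told apart from those of cross or collection. For Adh1, Adh7 and Aldh1a1 each genotype overlapped its neighbour in the order, so no step between neighbours stood clear of the spread.

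**Figure D3:**
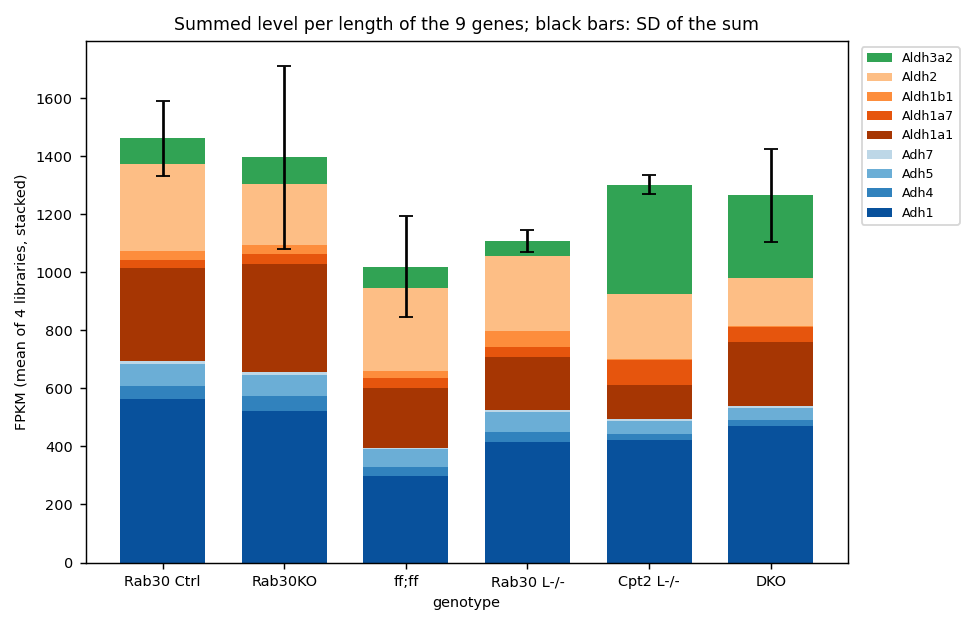
Mean FPKM of the 9 genes stacked by genotype (y axis, from 0; x axis, 6 genotypes), with the SD of the sum over 4 libraries. The sum varied from 1020 to 1461 FPKM, and the Aldh3a2 layer grew from 73.6 FPKM in ff;ff to 375 FPKM in Cpt2 L-/- livers.

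Per length, the sum of the 9 genes was 1020 ± 175 FPKM in ff;ff, 1302 ± 32.1 in Cpt2 L-/- and 1265 ± 160 in DKO livers (SD, n = 4). Its composition differed more than its size. Aldh3a2 made up 7.09% ± 1.26 of the sum in ff;ff livers, 28.8% ± 0.935 in Cpt2 L-/- and 22.3% ± 4.07 in DKO livers. The share of Aldh1a1 was 20% ± 5.67, 9.17% ± 1.45 and 17.3% ± 2.69, and that of Aldh2 28.4% ± 9.87, 17.3% ± 0.624 and 13.2% ± 1.03. The 5 Aldh genes summed to 809 ± 6.21 FPKM in Cpt2 L-/- livers, all 4 above the highest ff;ff liver (624 ± 123, highest 795), while the 4 Adh genes summed to 493 ± 30 against 396 ± 86.5 FPKM. The Aldh sums of Rab30 Ctrl and Rab30KO livers, 637 to 864 and 568 to 847 FPKM, spanned those of Cpt2 L-/- livers. Their Adh sums were higher on average than in Cpt2 L-/- livers, at 693 ± 65.1 and 656 ± 200 FPKM. These sums are descriptions and were not tested.

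The list of other genes of the 2 families held 19. In Cpt2 L-/- livers 12 were tested, of which 6 were lower and 2 higher (median log2 difference -0.44, beside 0 over all genes), and in DKO livers 5 of 11 were lower and 1 higher (median -0.68, beside -0.02). Over all genes 11.9% were lower and 11.9% higher in the first comparison, and 8.24% and 7.87% in the second. Aldh1l1, which oxidizes 10-formyltetrahydrofolate in the folate cycle, fell most, by 2.22 and 1.81 on the log2 scale (adjusted p = 9.2e-05 and 6.8e-04), from 281 ± 94.7 FPKM in ff;ff to 60.4 ± 17.1 in Cpt2 L-/- and 80.6 ± 21.1 in DKO livers. Aldh18a1, an enzyme of proline synthesis, and in Cpt2 L-/- livers Aldh1a3, a retinaldehyde dehydrogenase, were called higher (log2 1.41 and 1.79 for Aldh18a1, 1.39 for Aldh1a3), but their mean levels stayed under 1 FPKM in every genotype. The Aldh18a1 call in DKO livers was lost without DKO replicate 3 or 4 or any ff;ff replicate (adjusted p up to 0.152) and with limma-voom (0.112), and that in Cpt2 L-/- livers in the fit over all 24 libraries (0.0564). The Aldh1a3 call in Cpt2 L-/- livers was lost without the filter (0.0588) and without ff;ff replicate 1, 2 or 4 or Cpt2 L-/- replicate 1 or 2 (up to 0.0821). Aldh1a3 was also the family gene called lower in DKO than in Cpt2 L-/- livers (-2.16, SE 0.42, adjusted p = 0.0256), a call lost without DKO replicate 1 or 2 or any Cpt2 L-/- replicate (up to 0.0809), and the only one with a called interaction (-3.51, adjusted p = 0.00521). Adh6a and Adh6b, further alcohol dehydrogenases, were at or near 0 FPKM and were not tested.

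**Figure D4:**
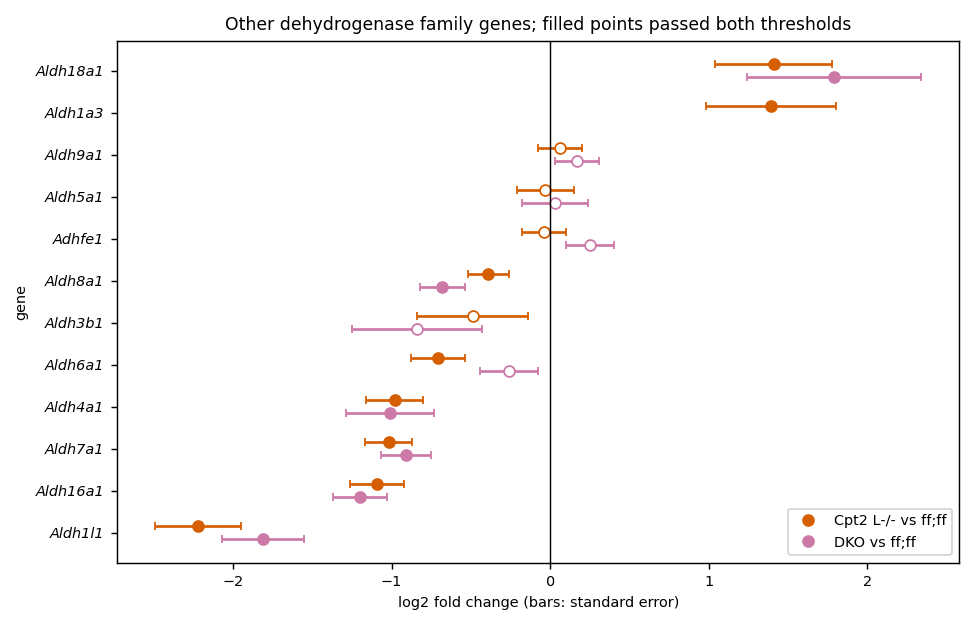
Log2 fold change with its standard error (x axis) of the 12 other dehydrogenase family genes tested (y axis) in Cpt2 L-/- and DKO against ff;ff livers; filled points passed both thresholds. Aldh1l1 lies lowest at -2.22 and -1.81, and Aldh18a1 highest at 1.41 and 1.79; Aldh1a3 was not tested in DKO against ff;ff livers.

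The steps around these enzymes were read from 5 further lists. Of the omega-oxidation enzymes that act before the dehydrogenases, the cytochrome P450 genes of the Cyp4a and Cyp4f groups and their reductase Por, 1 of 10 was higher and 2 lower in Cpt2 L-/- livers, and 4 were higher and 2 lower in DKO livers. Over all genes 11.9% were higher and 11.9% lower in Cpt2 L-/- livers, and 7.87% higher and 8.24% lower in DKO livers. In DKO against Cpt2 L-/- livers 0 of the 10 passed by edgeR's test, 7 had an unadjusted p under 0.05, and 4 were higher with DESeq2's Wald test, 1 without the filter and 2 without DKO replicate 4. The count of 4 was 2 without DKO replicate 1 or 2, without ff;ff replicate 1 or without the filter, and 1 in the fit over all 24 libraries. The count of 1 in Cpt2 L-/- livers was 2 without ff;ff replicate 2 or 3, with DESeq2's Wald test and with limma-voom. Cyp4a14, a fatty acid omega-hydroxylase, rose by 0.79 (SE 0.17) and 1.12 (SE 0.18) on the log2 scale, to 5408 ± 470 and 6837 ± 629 FPKM from 3123 ± 418 in ff;ff livers. In the fit over all 24 libraries neither Cyp4a14 call passed (adjusted p = 0.244 and 0.112). Cyp4f14, from the group that also hydroxylates leukotrienes and vitamins, fell by 2.30 and 1.90 (adjusted p = 2.9e-06 and 3.2e-05). Cyp4a32 gave the largest rise in DKO livers (1.34, SE 0.36), but Cyp4a genes are near-identical copies and reads could be split between them, and the call was lost without DKO replicate 1, 2 or 3 or ff;ff replicate 1 (adjusted p up to 0.0747) and without the filter (0.136).

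Of 21 retinoid genes in the list, 1 of 17 tested was higher and 5 lower in Cpt2 L-/- livers, where 23.8% of all genes were called, and 0 of 18 were higher and 5 lower in DKO livers, where 16.1% were. The lowest called value in Cpt2 L-/- livers was that of Dhrs3, which reduces retinaldehyde back to retinol (-1.19, SE 0.20). At the other end stood Stra6l, a receptor for circulating vitamin A and the gene called higher (0.52, SE 0.17, in Cpt2 L-/- livers), and Rdh7, a retinol dehydrogenase (-0.48, SE 0.14, in DKO livers). The Stra6l call was lost without ff;ff replicate 2 or 4 or Cpt2 L-/- replicate 2, 3 or 4 (adjusted p up to 0.115) and in the fit over all 24 libraries (0.0528). The Rdh7 call was lost when any 1 DKO replicate or ff;ff replicate 2, 3 or 4 was left out (up to 0.111) and without the filter (0.09). Of 5 genes around ethanol oxidation and acetate use, 4 were tested and Acss2, which makes acetyl-CoA from acetate, was the only one called, lower in both (-0.59 and -0.48). The first of these calls was lost without Cpt2 L-/- replicate 4 (adjusted p = 0.0594), and the DKO call when any 1 DKO replicate or ff;ff replicate 2 or 3 was left out (up to 0.123), with DESeq2 size factors (0.0504), with limma-voom (0.0549) and without the filter (0.0695). Cyp2e1 and Cat, the other routes of ethanol oxidation, had log2 differences of -0.54 (adjusted p = 0.0668) and 0.07 (0.84) in Cpt2 L-/- and of -0.10 (0.768) and 0 (0.995) in DKO livers by edgeR's test. In Cpt2 L-/- livers 2 genes of this list were lower with DESeq2's Wald test, without the filter and without Cpt2 L-/- replicate 1.

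Among other reductases and oxidases of aldehydes, 3 of 13 were higher and 4 lower in Cpt2 L-/- livers and 1 of 14 higher and 4 lower in DKO livers, beside the same shares of all genes (11.9% and 11.9%, 7.87% and 8.24%). That last count was 1 without DKO replicate 1 or ff;ff replicate 2, and 2 without DKO replicate 3 or 4 or ff;ff replicate 4. The count higher in DKO livers was 2 without DKO replicate 3. Cbr3, a carbonyl reductase, had the highest value, 4.10 (SE 0.28) and 2.40 (SE 0.48), from 0.429 ± 0.134 FPKM in ff;ff to 7.5 ± 1.12 in Cpt2 L-/- and 2.29 ± 1.5 in DKO livers. Aox3, an aldehyde oxidase, had the lowest, -2.16 (SE 0.42) and -2.52 (SE 0.32). Cbr1 and Cbr3 were also lower in DKO than in Cpt2 L-/- livers (-0.84, SE 0.16, and -1.68, SE 0.35). The Cbr1 call was lost without DKO replicate 2 or Cpt2 L-/- replicate 2 or 4 (adjusted p up to 0.0707) and in the fit over all 24 libraries (0.149), and the Cbr3 call without DKO replicate 1 or 2 or any Cpt2 L-/- replicate (up to 0.101). Of 6 producers and partners of formaldehyde and fatty aldehydes, Gsr, the glutathione reductase, was the gene called higher in both (1.14 and 0.86; 3 genes were higher in DKO livers without ff;ff replicate 1), and Phyh, the peroxisomal enzyme that starts the breakdown of phytanic acid, was lower in Cpt2 L-/- livers (-1.03, SE 0.20). In edgeR's test none of the genes in these 5 lists or the family list was called in Rab30 L-/- against ff;ff or in Rab30KO against Rab30 Ctrl livers.

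Zonal hepatocyte genes moved in the same livers. Of 12 pericentral genes 8 were lower and 1 higher in Cpt2 L-/- livers and 7 lower and 0 higher in DKO livers, and of 12 periportal genes 8 were lower and 1 higher in both. The shares of all genes were 11.9% lower and 11.9% higher in Cpt2 L-/- livers, and 8.24% and 7.87% in DKO livers. The sum of the periportal genes was 6960 to 9600 FPKM in ff;ff livers and 3810 to 4680 in Cpt2 L-/- and 4180 to 5360 in DKO livers, with no gene at 0. The pericentral sum was 6010 to 8400 FPKM in ff;ff, 3720 to 5480 in Cpt2 L-/- and 5200 to 6840 in DKO livers, so that DKO and ff;ff livers overlapped. The part of these shifts in the values of the dehydrogenases was not tested. In DKO against Cpt2 L-/- livers, where 2.71% of all genes passed, 1 pericentral gene was higher (Slc1a2, 1.53) and 1 lower (Axin2, -1.12). G6pc, the glucose-6-phosphatase of the periportal list, was the single zonal or cell type marker called in Rab30 L-/- against ff;ff livers (-1.28, SE 0.24, adjusted p = 0.0423). The call was lost without Rab30 L-/- replicate 1, 2 or 4 or ff;ff replicate 1, 2 or 3 (up to 0.148), with limma-voom (0.0525), in the fit over all 24 libraries (0.124) and with at least 10 counts in every library (0.0616). The interaction called 6 such markers, with values above 0 for G6pc, Slc1a2 and Alb (log2 2.58, 2.43 and 1.04) and below 0 for Axin2, Tbx3 and Colec11 (-1.52, -2 and -1.15). Among all genes 0.479% passed in Rab30 L-/- against ff;ff livers and 4.06% in the interaction. Of 10 stellate markers 0 were called in Cpt2 L-/- or DKO against ff;ff livers. Of 8 sinusoidal endothelial markers 1 was lower in Cpt2 L-/- and 0 in DKO livers, and of 7 bile duct markers, 4 and 5 of them tested, 1 was lower in each.

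Over the 24 libraries the log2 CPM of some members ran together. These correlations are descriptions over libraries that share genotypes. Aldh1b1 and Aldh3a2 had a Pearson r of -0.88, which was -0.25 once each genotype's mean was removed, and Adh4 and Adh5 had 0.85 (0.35). Aldh1a1 and Aldh1a7 had -0.48 (0.08). Of 14584 genes, the most like Aldh3a2 were Entpd5 (r = 0.95, 0.55 within genotypes) and Pnldc1 (0.94, 0.57), and the most like Aldh1b1 were Uroc1 (0.96, 0.85) and Sardh (0.96, 0.75). Adh4 was nearest to Apol7a (0.96, 0.84) and Nit2 (0.95, 0.89), and Adh5 to Sqor (0.95, 0.76) and Echdc3 (0.93, 0.69). For Adh1 the nearest were Ces1e (0.86, 0.87) and Ces1f (0.84, 0.76), for Aldh1a1 Slco1b2 (0.87) and Cyp4v3 (0.85), and for Aldh2 Apoe (0.88) and Mtch1 (0.86). Aldh1a7 was nearest to Pes1 and Mettl16, each at 0.85, and Adh7 had the lowest r with its nearest gene, Ccdc117 at 0.76, followed by Fhit at 0.75.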

How the data were processed

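Whole-liver RNA of 24 fasted mice was sequenced, 4 animals for each of 6 genotypes. The authors deposited raw counts per gene in 1 column per library, and FPKM values that the authors scaled to gene length and library size. HISAT2, DESeq2 and the build GRCm38/mm10 are named in the submitters' processing notes; the counter, its strand setting and the annotation version are not given in the sources used here. Replicates were numbered in accession order and pair nothing. The p-values weigh differences between groups against the spread between animals, and they do not cover differences of cross or collection. The authors' own comparisons (fold changes and p-values) and their table of normalized counts were not used.

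The 9 genes and the gene lists were chosen with earlier results of these data known. Counts were tested over all genes with edgeR 4.0.16 (filterByExpr, TMM, robust quasi-likelihood fit) in R 4.3.3, each pairwise comparison on its own 8 libraries and the interaction on 16. A gene was called at a Benjamini-Hochberg adjusted p under 0.05 over all genes tested and a fold of at least 1.2, and the standard error is the absolute log2 fold change divided by the root of F. CPM used TMM-scaled library sizes, and correlations used log2 CPM with a prior count of 2. The scripts were tested on simulated data. Named were all 9 genes, Rab30 and Cpt2, the called genes at both ends of each list, any list gene called in a Rab30 comparison, and the 2 genes most like each member. Of the list genes, 1 that this rule names is not reported here, and the zonal and cell type lists are given mainly by their counts. Alternatives were DESeq2 1.42.0 (its size factors, its Wald test), limma 3.58.1 with voom, 1 fit over all 24 libraries, no filter, at least 10 counts in every library, and each library left out. Totals of 11801027 to 24497738 counts set the precision, and it is lowest for genes with few counts. Promoter windows are those of RefSeq for GRCm38.p6, with an entry for 8 of the 9 genes. Coding sequences and windows were compared with Biopython 1.88.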

Additional observations from a re-analysis of the deposited data

Results flagged for a closer look

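In Rab30 Ctrl livers, Adh5 stood at 337.6 CPM in replicate 4, below the other livers of that genotype, which lay between 416.2 and 424.6 CPM. The gap to the nearest liver was 0.903 of the whole range of the group. Of 54 sets of 4 libraries tested in this way (9 genes in 6 genotypes) it was the 1 that stood apart, where chance gives about 1 in 20. Adh5 was not called in the comparison that uses this liver.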

How the results depend on the processing

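Against ff;ff livers, the calls of Aldh3a2 and Aldh1b1 in Cpt2 L-/- and DKO livers and of Aldh1a7 in Cpt2 L-/- livers held in every alternative run. The other calls did not, and the cause was not tested. With 1 library left out, the number of the 9 genes called was 3 to 6 in Cpt2 L-/- and 2 to 4 in DKO against ff;ff livers, and 0 to 1 in DKO against Cpt2 L-/- livers. In that last comparison it was 3 with DESeq2's Wald test and 0 in the fit over all 24 libraries.

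Values that changed sign belonged to differences that were not called. With limma-voom Aldh1a7 was -0.03 in Rab30 L-/- and -0.12 in Rab30KO livers. With 1 library left out, log2 differences ran from -0.11 to 0.18 for Adh7 in Cpt2 L-/- and from -0.07 to 0.33 for Aldh1a1 in DKO against ff;ff livers. In DKO against Cpt2 L-/- livers they ran from -0.09 to 0.03 for Adh5 and from -0.04 to 0.25 for Adh7. In Rab30 L-/- livers they ran from -0.33 to 0.09 for Aldh1a1 and from -0.13 to 0.17 for Aldh1a7. In Rab30KO livers the ranges were -0.31 to 0.01 for Adh1, -0.17 to 0.04 for Adh5, -0.48 to 0.01 for Adh7, -0.08 to 0.46 for Aldh1a7, -0.18 to 0.31 for Aldh1b1 and -0.19 to 0.22 for Aldh3a2. For the interaction they were -0.32 to 0.05 for Adh4, -0.82 to 0.16 for Aldh1b1 and -0.15 to 0.40 for Aldh3a2.

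Over all genes, the number called in DKO against Cpt2 L-/- livers was 360, and 1032 with DESeq2's Wald test, 705 without the filter, 114 in the fit over all 24 libraries and as few as 57 without Cpt2 L-/- replicate 4. In Rab30 L-/- livers it was 64, and 298 with DESeq2's Wald test, 240 without the filter, 32 with limma-voom, 25 with at least 10 counts in every library and as few as 23 without Rab30 L-/- replicate 4. In Rab30KO livers it was 3, and 10 with DESeq2, 9 in the fit over all libraries, 6 without the filter, 1 with limma-voom and 0 with at least 10 counts. For the interaction it was 571, and 1080 with DESeq2, 374 in the fit over all libraries and as few as 300 without Cpt2 L-/- replicate 4. The alternatives for the genes of the lists were chosen after seeing the data. No paired analysis was possible because the labels give no shared replicate numbers.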
